A study of Mus musculus with 21 samples.

Results

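Expression was examined for 7 genes that mark or regulate the bulge of the hair follicle: Cd34, Lhx2, Sox9, Nfatc1, Tbx1, Foxc1 and Runx1. They were picked by gene symbol among the 22050 entries of the expression table, and all 7 were among the 12782 genes with enough signal to be tested. The 7 genes, and the lists of other genes below, were chosen with earlier results of these data known. Their shares called are therefore not an independent contrast with the shares over all genes. GFP+ keratinocytes had been sorted from the dorsal skin of mice given doxycycline from 3 weeks of age for 6 months. The control group was K5-rtTA/tet-GFP and the p16 group K5-rtTA/tet-GFP/tet-p16, with 4 samples in each, and every sample held about 80000 cells pooled from 3 mice, after fibroblasts, leukocytes and endothelial cells had been removed by their CD140a, CD45 and CD31 staining. Both groups were males of a mixed FVB, C57Bl and 129sv background, so K5-rtTA, tet-GFP and doxycycline were common to all samples, and the human p16 transgene, an inhibitor of the cell cycle, was what set the groups apart. The comparison asks what prolonged p16 expression changes in keratinocytes. Expression of rtTA was driven by the keratin 5 promoter, which is active in basal cells of the interfollicular epidermis and of the follicle alike, so each sample mixed cells of both compartments, and GFP marked cells in which the tet system had been switched on rather than p16 itself. The replicates of each group came from 3 experiments, which the sources used here do not tie to samples. A further 13 samples of the series were not analysed here.

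The bulge is the part of the outer root sheath in which the slow-cycling stem cells of the hair follicle reside between growth phases. In the mouse these cells carry CD34 on their surface, and a set of transcription factors holds them in their state: LHX2 and SOX9 maintain the stem cell pool, NFATC1 and FOXC1 keep the cells quiescent, TBX1 is needed for their self-renewal, and RUNX1 favours their entry into the growth phase. Sebaceous glands and the upper follicle adjoin the bulge, and the interfollicular epidermis has stem cells of its own.

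Values are read counts scaled by 1 size factor per sample (normalized values), from 3′-end sequencing with between 1760953 and 3414362 reads on genes per sample. In one sample of the p16 group the transgene was not above the control level: the normalized value of the human p16 sequence, listed as hsCDKN2A, ran 0.7, 1.3, 2.5, 1.5 over the control replicates and 1.6, 10.1, 16, 7.4 over those of p16, each in order. Thus 1 library, that labelled p16 replicate 1, did not show its transgene above the control level. These values rested on 1 to 3 reads in control and 2 to 18 reads in p16 samples. The difference between the groups was not called (log2 fold change 1.73, adjusted p = 0.0952, limma), so this check of the labels is weak. EGFP was expressed in every sample, at 4152 to 5913 in control and 3162 to 3979 in p16 samples (log2 fold change -0.58, adjusted p = 0.0167, limma). P16 replicate 4 stood apart from the rest of its group, since the chi-square per degree of freedom between its counts and those of the other 3 was 6.75 to 8.96, against 3.05 to 3.31 among those 3. Every limma call of the 7 genes and of the lists below was therefore also made without p16 replicates 1 and 4. This alternative was added after the data had been seen. The ratios and correlations below were not repeated in this setting.

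Of the 7 genes, 6 were lower in p16 cells and Runx1 was not called (limma, adjusted p under 0.05). Among all genes tested 3.86% were called, 2.61% lower and 1.24% higher. The same 6 genes had 4 p16 values that all lay below the 4 control values, which held for 5.63% of all genes tested. The falls were of different sizes. Cd34, Tbx1 and Lhx2 dropped to between 7.0% and 23.1% of their control mean, and Sox9, Foxc1 and Nfatc1 to between 61.8% and 69.8%. The median log2 fold change over the 7 was -0.74, beside -0.0027 over all genes tested. Without p16 replicates 1 and 4 the calls of Sox9 and Foxc1 were lost and 4 of the 7 genes were called. In sorted pools, fewer bulge cells and less RNA of a gene per cell cannot be told apart.

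**Figure D1:**
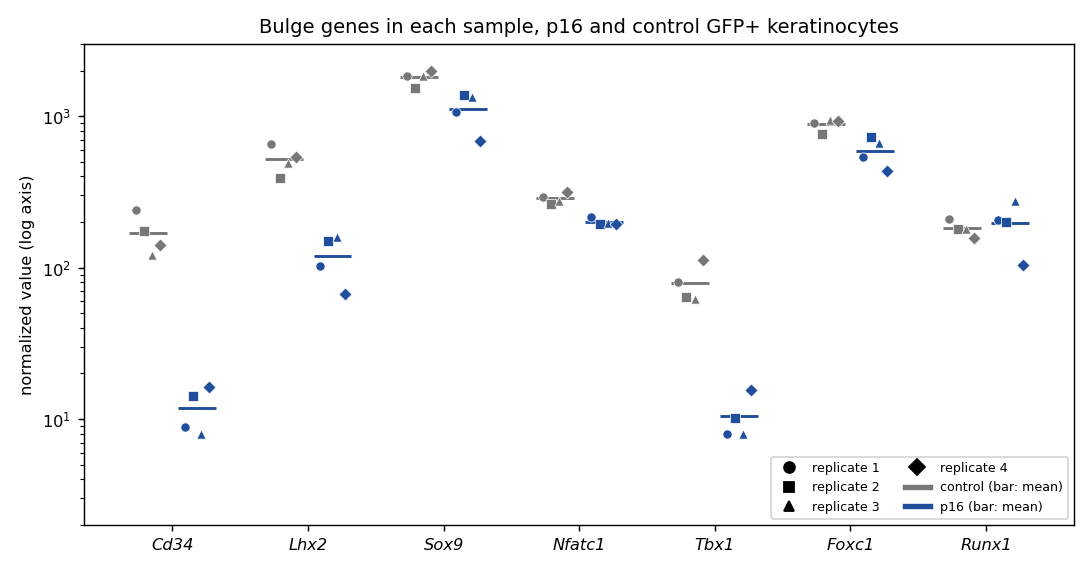
Normalized value of each of the 7 genes in each sample, on a log axis (control in grey, p16 in blue, one symbol per replicate number, bars at the group means). All groups are apart except for Runx1, and p16 replicate 4 (diamonds) is the lowest p16 sample for Lhx2, Sox9, Foxc1 and Runx1 but the highest for Cd34 and Tbx1.

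Cd34 (ENSMUSG00000016494; chromosome 1 from 194938819 to 194961279 on the plus strand of GRCm38) encodes the surface sialomucin by which mouse bulge cells are sorted. Its normalized value was 238.9, 174.5, 121.9 and 140.6 over the 4 control samples (replicates 1 to 4, in this order throughout) and 8.8, 14.1, 8.0 and 16.4 over the 4 p16 samples. The highest p16 sample was thus far below the lowest control sample, and the control samples spread 1.96-fold, from replicate 1 at the top to replicate 3 at the bottom. The group means were 169 ± 51.4 and 11.8 ± 4.08 (SD, n = 4 each). The log2 fold change was -3.74 with a standard error of 0.25 (95% interval -4.28 to -3.20, adjusted p = 3.27e-06, limma). Among the 12782 genes it had the second smallest p-value and was the largest fall on the log2(value + 1) scale. That scale understates the falls of low genes. Between 9 and 20 reads stood behind each p16 value. Exons of the antisense gene Gm16897 overlap those of Cd34, its value is not used here, and the sources do not say whether reads were counted by strand.

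Lhx2 (ENSMUSG00000000247; chromosome 2 from 38339281 to 38369733, plus strand) encodes a LIM homeodomain factor. It stood at 658.7, 391.4, 487.8 and 540.8 in the control replicates and at 103.1, 150.7, 159.6 and 66.6 in the p16 replicates. The groups were well separated, with p16 replicate 4 the lowest. The means were 520 ± 111 and 120.0 ± 43.4 (SD, n = 4 each), a log2 fold change of -2.16 with a standard error of 0.23 (95% interval -2.66 to -1.67, adjusted p = 0.000111, limma).

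Tbx1 (ENSMUSG00000009097; chromosome 16 from 18580979 to 18590671, minus strand) encodes a T-box factor. Control replicates gave 80.1, 64.2, 61.8 and 111.5, and p16 replicates 8.0, 10.1, 8.0 and 15.6. Replicate 4 was the highest sample in each group, and no p16 value came near the control range. From means of 79.4 ± 22.9 and 10.4 ± 3.59 (SD, n = 4 each), Tbx1 changed by -2.82 on the log2 scale, with a standard error of 0.26 (95% interval -3.37 to -2.28, adjusted p = 2.73e-05, limma). The p16 values rested on 9 to 19 reads per sample. Cd34, Lhx2 and Tbx1 were called in all 18 alternative settings of the analysis, with log2 fold changes of -3.82, -1.71 and -2.97 without p16 replicates 1 and 4.

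The promoter sequences of the 3 genes with the largest falls are shown, with the letters of a T-box core (AGGTGT, searched on both strands) in capitals, since Tbx1 is itself one of the 3. They are the 250 bases before the RefSeq start in GRCm38.p6, at chr1:194938571-194938820 (plus strand) for Cd34, chr2:38339031-38339280 (plus strand) for Lhx2 and chr16:18590672-18590921 (minus strand) for Tbx1. Where a gene had 2 windows the upstream one was taken.
Cd34: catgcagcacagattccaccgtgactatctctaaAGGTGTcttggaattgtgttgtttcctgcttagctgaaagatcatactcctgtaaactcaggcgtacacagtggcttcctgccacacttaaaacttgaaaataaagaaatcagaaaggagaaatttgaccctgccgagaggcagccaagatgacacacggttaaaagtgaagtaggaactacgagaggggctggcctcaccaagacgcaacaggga
Lhx2: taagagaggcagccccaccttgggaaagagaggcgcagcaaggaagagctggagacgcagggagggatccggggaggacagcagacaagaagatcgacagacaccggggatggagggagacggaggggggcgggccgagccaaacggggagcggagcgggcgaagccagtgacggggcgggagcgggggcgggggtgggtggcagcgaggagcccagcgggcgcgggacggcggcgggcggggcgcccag
Tbx1: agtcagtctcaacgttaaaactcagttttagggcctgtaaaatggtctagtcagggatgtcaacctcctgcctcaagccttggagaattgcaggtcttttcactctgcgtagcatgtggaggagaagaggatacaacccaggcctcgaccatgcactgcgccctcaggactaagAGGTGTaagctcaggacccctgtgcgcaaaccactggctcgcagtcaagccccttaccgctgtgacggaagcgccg
The Cd34 and Tbx1 stretches each held the letters once, at -216 and -76 from the start, and the GC-rich Lhx2 stretch did not hold them. The same letters occurred in 13.7% of the 32851 promoter windows of the genome (250 bases before to 50 after a start). Among the 8 windows used, from 5 of the 7 genes, 2 held them. A match of 6 letters is a description of the sequence and not a binding site.

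Sox9 (ENSMUSG00000000567; chromosome 11 from 112782224 to 112787760, plus strand) encodes an HMG-box factor of the outer root sheath and its stem cells. Control samples gave 1838, 1546, 1858 and 1982, and p16 samples 1073, 1372, 1333 and 686.5. P16 replicate 4 was far below the rest of its group, and p16 replicates 2 and 3 lay nearest to the control range. The means were 1806 ± 184 and 1116 ± 316 (SD, n = 4 each), a log2 fold change of -0.74 with a standard error of 0.18 (95% interval -1.12 to -0.36, adjusted p = 0.0297, limma). It was -0.41 and no longer called without p16 replicates 1 and 4 (adjusted p = 0.116, limma).

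Foxc1 (ENSMUSG00000050295; chromosome 13 from 31806633 to 31812476, plus strand) encodes a forkhead factor. It gave 902.8, 759.7, 942.9 and 935.0 in the control replicates and 535.7, 727.7, 662.3 and 434.1 in the p16 replicates. Control replicate 2 and p16 replicate 2 were close to each other, and replicate 4 was again the lowest of the p16 samples. From 885 ± 85.4 to 590 ± 131 (SD, n = 4 each), Foxc1 changed by -0.61 on the log2 scale with a standard error of 0.14 (95% interval -0.91 to -0.30, adjusted p = 0.0263, limma). It was -0.34 and not called without p16 replicates 1 and 4 (adjusted p = 0.208, limma). The calls of Sox9 and Foxc1 were also lost when control replicate 1, 3 or 4 or p16 replicate 1 was left out, with adjusted p between 0.0755 and 0.0941 in limma.

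Nfatc1 (ENSMUSG00000033016) encodes a calcineurin-dependent factor. The 4 control samples read 291.5, 261.8, 273.9 and 317.8, and the 4 p16 samples 215.9, 193.6, 196.8 and 193.2. The p16 samples were close together apart from replicate 1, which was the highest. The change from 286 ± 24.3 to 199.9 ± 10.8 (SD, n = 4 each) was the smallest of the 6, at -0.51 on the log2 scale, but had the smallest standard error, 0.10 (95% interval -0.73 to -0.30, adjusted p = 0.00948, limma). It was called in 17 of the 18 alternative settings, with a change of -0.55 without p16 replicates 1 and 4.

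Runx1 (ENSMUSG00000022952; chromosome 16 from 92601466 to 92826149, minus strand) encodes a Runt-domain factor. Control samples had 208.5, 181.0, 180.4 and 155.8, and p16 samples 206.3, 200.7, 274.0 and 103.6. The p16 samples spanned the whole control range, with replicate 3 above it and replicate 4 below it. The means were 181 ± 21.5 and 196 ± 70.1 (SD, n = 4 each), and the log2 fold change of 0.04 had a 95% interval from -0.44 to 0.51 (adjusted p = 0.965, limma). A fall of the size of Sox9 or Foxc1 lay outside that interval. Runx1 changed by 0.38 without p16 replicates 1 and 4 (adjusted p = 0.324, limma). Exons of the antisense gene Gm26626 overlap those of Runx1, and its value is not used here.

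The upstream promoter window of Runx1 held 2 matches to the RUNX core (TGTGGT, read here on the other strand as ACCACA) directly after a match to a forkhead core (TAAACA), and this stretch is shown because both factor families are among the 7 genes. The first match begins 22 bases after the RefSeq start, and the stretch lies at chr16:92826030-92826055 on the minus strand of GRCm38.p6, with the matches in capitals.
Runx1: tcaTAAACAACCACAgaACCACAagt
The RUNX core occurred in 16.8% and the forkhead core in 13.4% of all 32851 promoter windows searched. Over the 8 windows of the 5 genes, 2 held the RUNX core, 2 an NFAT core (GGAAAA, in 23.4% of all windows), 1 the forkhead core, and 0 a SOX core (AACAAT, 10.7%) or a LIM homeodomain core (TAATTA, 5.29%), all searched on both strands.

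**Figure D2:**
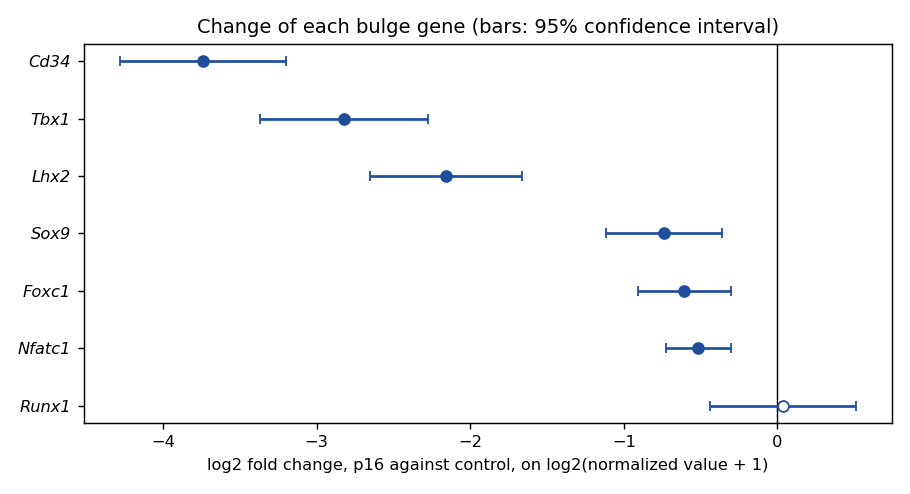
Log2 fold change of each of the 7 genes, p16 against control, with its 95% confidence interval (filled points: adjusted p under 0.05 in limma). The intervals of Cd34, Tbx1 and Lhx2 lie below -1.67, those of Sox9, Foxc1 and Nfatc1 between -1.12 and -0.30, and that of Runx1 includes 0.

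Whether Cd34 changed more than the other 6 genes within the same samples was tested on the log2 ratio of each pair by an exact two-sided permutation test, adjusted over the 6 ratios. The log2 ratio of Cd34 to Nfatc1 changed by -3.22, that to Foxc1 by -3.13, that to Sox9 by -2.998 and that to Runx1 by -3.77, each with p = 0.0286 by exact permutation, the smallest that 4 against 4 samples allow (adjusted p = 0.0429). That of Cd34 to Lhx2 changed by -1.58 and that of Cd34 to Tbx1 by -0.91, and in both the groups overlapped (exact permutation p = 0.0571, adjusted p = 0.0571). Both missed the threshold with all samples, but the Lhx2 ratio passed with a pseudocount of 0.1 (-1.67) and without p16 replicate 4 (-1.995), and the Tbx1 ratio without control replicate 4 (-1.16), each with an adjusted exact permutation p of 0.0343. Of each of the 6 called genes taken alone, the exact permutation p was also 0.0286, and that of Runx1 was 0.714.

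The genes also varied within each group, and this variation was compared after every value had been set against the mean of its own group on the log2 scale. Lhx2, Sox9 and Foxc1 rose and fell together over the 8 samples. Pearson's r was 0.96 for Sox9 and Foxc1 (rho 0.98), 0.93 for Lhx2 and Sox9 (rho 0.90) and 0.92 for Lhx2 and Foxc1 (rho 0.88). Permutation within groups gave p = 0.00521 (rho 0.00694), p = 0.0139 (rho 0.0330) and p = 0.0208 (rho 0.0469). Adjusted over the 21 pairs of the 7 genes, these permutation p-values were 0.109, 0.146 and 0.146 for r and 0.146, 0.310 and 0.310 for rho, so that none passed. Within the 4 control samples r was 0.96, 0.72 and 0.70 for these pairs, and within the 4 p16 samples 0.97, 0.98 and 0.97. Without the 2 samples farthest from the median of the first-named gene, r was 0.93, 0.82 and 0.82 for the same pairs. The group means were not taken anew for this. Without p16 replicate 4 r was 0.97, 0.84 and 0.80.

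Cd34 did not show such a pattern with these transcription factors over the 8 samples. Its r was -0.21 with Lhx2, -0.45 with Sox9 and -0.32 with Foxc1, and 0.52 with Tbx1 (rho 0.77). Permutation p-values for r were 0.656, 0.358, 0.493 and 0.253, and the rho of Cd34 and Tbx1 had a permutation p of 0.0590 (adjusted p = 0.310). Without p16 replicate 4 the 4 values of r were 0.36, 0.05, 0.14 and 0.25. Within the 4 control samples they were 0.44, -0.28, -0.33 and 0.05, and within the 4 p16 samples -0.54, -0.56, -0.35 and 0.91. Between 9 and 20 reads stood behind each p16 value of Cd34, so counting error limits what its correlations can show. Runx1 went with Lhx2 (r = 0.82), Sox9 (0.81) and Foxc1 (0.69) and against Tbx1 (-0.76, permutation p = 0.0347, adjusted p = 0.182), but without p16 replicate 4 these 4 values were 0.44, 0.04, 0.02 and -0.46. Of the 21 pairs, 12 had an r above 0, 4 an unadjusted p under 0.05, and 0 an adjusted p under 0.05. The median r was 0.15.

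**Figure D3:**
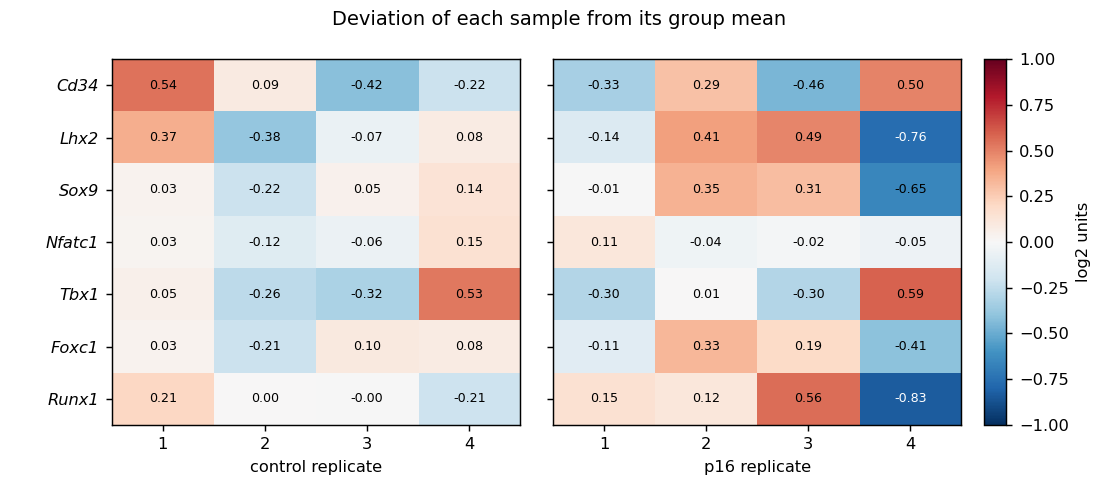
Deviation of each sample from its group mean in log2 units for the 7 genes (colour and printed value, red above and blue below the mean). In p16 replicate 4 Runx1, Lhx2, Sox9 and Foxc1 were 0.83 to 0.41 below the group mean while Cd34 and Tbx1 were 0.50 and 0.59 above it.

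P16 replicate 4 had the lowest p16 value of 5 of the 7 genes and the highest of Cd34 and Tbx1. The median deviation in that sample over genes with a mean of at least 10 was 0.012. Control replicate 2 had the lowest control value of 4 genes. Genes with the profile most like each of the 7 were sought among 9405 genes, by the root mean square difference over the 8 samples between log2 values set against the control mean. Nearest to Cd34 were Akr1c18, which encodes a steroid dehydrogenase (0.48), Pdlim3 (0.52) and Acoxl (0.61). Id2, an inhibitor of helix-loop-helix factors (0.35), the fatty acid elongase Elovl6 (0.35) and the companion layer keratin Krt75 (0.37) came nearest to Lhx2. For Tbx1 they were the adhesion molecule Clmp (0.50), the glypican Gpc6 (0.53) and again Akr1c18 (0.53). Sox9 had Marcksl1 (0.070), Acot1 (0.13) and Erc1 (0.14) nearest, with Foxc1 in place 5. Erc1 (0.10), the Wnt receptor Fzd1 (0.11) and Clic4 (0.12) were nearest to Foxc1. Rmdn3 (0.062), Fbxl15 (0.10) and Unc119 (0.12) were nearest to Nfatc1, and Cfap97 (0.069), Gm4631 (0.095) and Nfxl1 (0.11) to Runx1. The nearest other one of the 7 genes was in place 7 for Cd34 (Tbx1), 9 for Foxc1 (Sox9) and 23 for Tbx1 (Cd34). It was in place 66 for Lhx2 (Tbx1), 371 for Nfatc1 (Foxc1) and 7485 for Runx1 (Foxc1).

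Other genes of the same families and their partners were followed too. Of 29 such genes 15 had enough signal to be tested, and 1 of the 15 was called (6.67%, beside 3.86% of all genes), the NFAT family member Nfatc2, which fell by 1.10 on the log2 scale (adjusted p = 0.0271, limma), between means of 41.5 ± 12.6 and 18.9 ± 5.76 (SD, n = 4 each). This call was lost without p16 replicates 1 and 4, and likewise without control replicate 1 or 4, without p16 replicate 1, and without replicate 3 of each group. The median log2 fold change of the 15 was -0.04. The other NFAT genes were not called: Nfatc3 changed by 0.10, Nfat5 by 0.07 and Nfatc4 by -0.66. Neither were the genes of the calcineurin subunits, Ppp3ca (0.06), Ppp3cb (0.18) and Ppp3r1 (-0.09). Ldb1, the cofactor through which LIM homeodomain proteins act, changed by 0.24 (adjusted p = 0.258, limma), and Cbfb, the partner of RUNX proteins, by -0.04 (adjusted p = 0.904, limma). Runx2 changed by -0.41, Runx3 was at 1.7 and 1.8 on average, and Foxc2, the paralogue of Foxc1, was at 2.6 in control cells and under 3 reads in every p16 sample. Tbx2 and Tbx3 stayed below 8 in every sample. Sox10, the paralogue of Sox9 found in melanocytes, read 26.7, 14.1, 5.0 and 9.2 in control and 3.2, 5.5, 0.9 and 3.3 in p16 samples, and missed the threshold (adjusted p = 0.0733, limma). Lhx1, Lhx4, Lhx5, Lhx6 and Lhx8 were at 0 in every sample.

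Other genes used to describe bulge cells did not all go the same way as the 7. Of 19 tested, 5 were called lower and 1 higher, beside 2.61% and 1.24% of all genes tested. The median log2 fold change of the 19 was -0.21. Krt15, a keratin of the bulge and of basal cells, fell from 10624 ± 2454 to 7066 ± 546 (SD, n = 4 each), a log2 fold change of -0.56 (adjusted p = 0.0463, limma). The secreted Wnt modulators Dkk3 (-1.04) and Sfrp1 (-0.80) and the calcium-binding S100a4 (-2.27) were also called lower. The growth factor Fgf18, at 8.9, 9.0, 15.0 and 3.1 in control samples, had 3 reads or fewer in every p16 sample and was at least 3.65-fold lower (the limit of 3 reads per library covers counting error only). Krt24 was called higher, with 12.6, 5.1, 13.4 and 9.2 in control and 31.2, 33.6, 117 and 21.4 in p16 samples (1.98, adjusted p = 0.0201, limma), and its lowest p16 value lay above its highest control value. Members of this list that were not called included the stem cell receptor Lgr5 (-0.69, adjusted p = 0.241, limma), the hemidesmosomal Col17a1 (0.12), the integrin Itga6 (0.21), the matrix protein Postn (0.73) and the activin inhibitor Fst (0.71). With p16 replicates 1 and 4 left out, 4 genes of the list were called lower and 3 higher.

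Among 20 further transcription factors of the follicle, 4 were called lower and 1 higher, and the median was -0.03. Id2 fell from 285 ± 54.2 to 73.5 ± 4.79 (SD, n = 4 each), a log2 fold change of -1.92 (adjusted p = 3.73e-06, limma). Tcf7l1, a Tcf factor of the bulge (-1.34), Tcf7l2 (-0.55) and the hair homeobox gene Hoxc13 (-1.44) fell as well, and Sox21 rose (0.61). In the upper follicle and isthmus 4 of 7 genes were called lower and 1 higher, with a median of -0.62: Cst6 (-1.34), Gata6 (-0.84), Plet1 (-0.68) and Defb6 (-0.62) fell, and the stem cell receptor Lgr6 rose by 0.55. Of 9 keratins and other genes of the outer and inner root sheath and hair, 3 were called lower, Krt6a (-1.89), Krt75 (-2.05) and Krt35. Krt35 was at 0 in every p16 sample and read 2.2, 2.6, 6.7 and 1.5 in control samples. Only control replicate 3 was above the limit of 3 reads. The bound for Krt35, at least 1.32-fold lower by the control mean, therefore rests mostly on that library. The median of that list was -0.76 with Krt35 at its bound. Over these 4 lists, 16 of 55 genes were called lower and 3 higher, against 2.61% and 1.24% of all genes tested. The upper follicle and isthmus had 2 genes called lower in place of 4 without p16 replicates 1 and 4, and likewise without control replicate 1, 3 or 4 or p16 replicate 1 or 3.

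**Figure D4:**
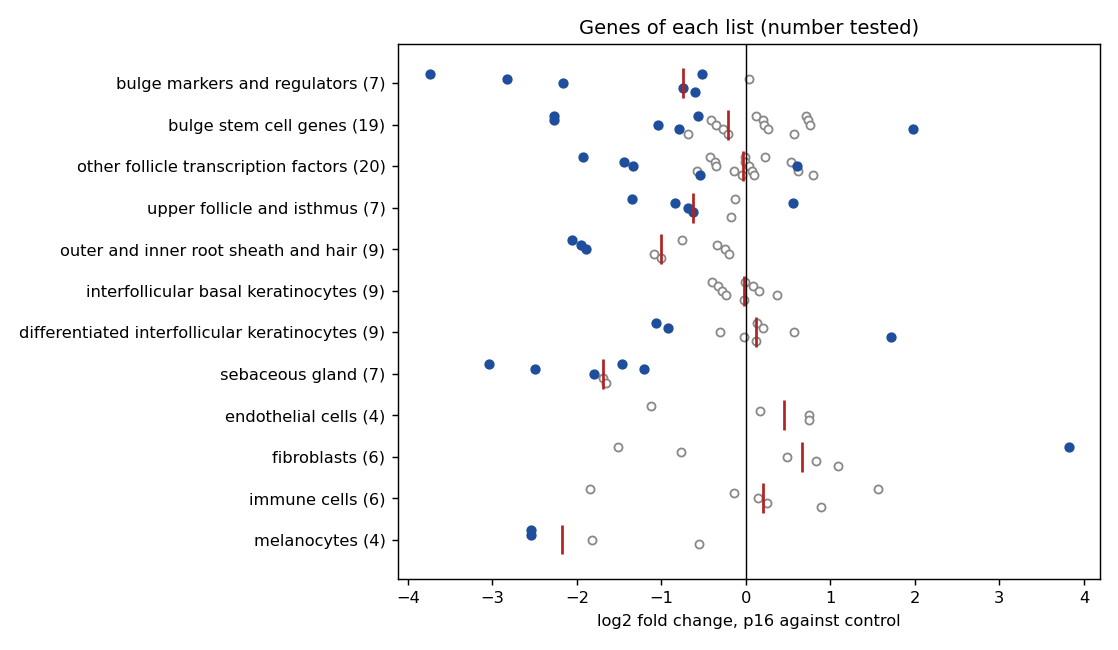
Log2 fold changes of the genes of each list, p16 against control (each point a gene, filled where the adjusted p was under 0.05 in limma, red bar at the list median, number tested in brackets; fitted values, so that genes at the limit of detection such as Krt35 are not bounds). The 7 bulge genes have a median of -0.74 and the sebaceous gland genes one of -1.69, while the basal interfollicular genes lie around -0.02.

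Other compartments of the skin gave the following values, beside 2.61% of all genes tested called lower and 1.24% called higher. Of 9 genes of basal interfollicular keratinocytes, among them Krt5, Krt14 and Trp63, limma called 0, edgeR 0 and DESeq2 0, with 1 lower and 1 higher at p under 0.05 before adjustment, which 15.9% of all genes reached. Their median was -0.02. Differentiated interfollicular genes had 2 lower, Ivl (-1.06) and Sbsn (-0.92), and 1 higher, Lor (1.72), of 9. The count of lower calls was 1 without p16 replicates 1 and 4, 1 without control replicate 1 or 3 or p16 replicate 1, and 0 without replicate 3 of each group. Of 7 sebaceous gland genes 5 were called lower, namely the desaturase Scd1 (-1.46), the lipid droplet proteins Plin2 (-1.21) and Cidea (-3.04), Mgst1 (-1.80) and the adipogenic factor Pparg (-2.49). The p16 values of all 7 lay below the control values, which held for 5.63% of all genes tested. The median of the 7 was -1.69, or -1.75 with Scd3 at its bound and Mc5r, at the limit in both groups, left out.

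Genes of cell types outside the keratinocyte lineage were followed as well, again beside 2.61% of all genes tested called lower and 1.24% called higher. Of 4 melanocyte genes tested, Dct (-2.54) and Tyrp1 (-2.54) were called lower, neither of them without p16 replicates 1 and 4, and the summed level of the 5 listed ranged from 63.4 to 411 in control and from 13.9 to 80.4 in p16 samples. Endothelial markers summed to 10.3 to 20 in control and 11.8 to 18.4 in p16 samples, with Cdh5, Kdr and Emcn at 0 throughout and 0 of 4 tested genes called by limma, edgeR or DESeq2 (1 lower at an unadjusted p under 0.05). Immune markers summed to 113 to 137 and 111 to 166, with Lyz2 and Cpa3 at 0 and 0 of 6 called by the same 3 tools (before adjustment, 1 lower and 1 higher). Of 6 fibroblast genes 1 was called, the proteoglycan Dcn, which read 5.9, 2.6, 4.2 and 10.7 in control and 85.6, 89.8, 203 and 36.2 in p16 samples, while Lum was at 0 throughout. Before adjustment, 1 fibroblast gene was lower and 3 were higher at p under 0.05. The collagen gene Col1a2, named after its values were seen, read 17.8, 10.3, 4.2 and 9.2 in control and 1.6, 3.1, 2.7 and 3.3 in p16 samples, each p16 value below each control value (log2 fold change -1.51, adjusted p = 0.0571, limma). Summed fibroblast markers, most of them Thy1, ranged from 608 to 811 in control and from 771 to 2951 in p16 samples. The part of melanocytes and other cell types in the changes of the 7 genes was not tested.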

How the data were processed

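Of the 21 labelled samples, 8 were analysed (4 control and 4 p16), and groups and replicate numbers were taken from the sample titles. The authors made 3′ CEL-Seq2 libraries, aligned reads to GRCm38 with TopHat2 and normalized them with DESeq2, and HTSeq is named in the submitters' processing notes. The deposited signal values are gene counts scaled by a size factor, rounded to 1 decimal. The use of strand and of molecular identifiers is not given in the sources used here. Dividing by the value of 1 read gave whole reads (within 0.1) for 100% of the values. The limit of 3 reads equals 2.23 to 4.58 normalized units. Libraries of a group differed by more than sampling noise in every pair (chi-square per degree of freedom at least 3.05).

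P16 and control samples were set against each other in limma 3.58.1 (eBayes with trend, R 4.3.3) on log2(value + 1) over the 12782 genes with a mean of at least 1, without a replicate term. Benjamini-Hochberg adjustment ran over all of them. A gene was called at an adjusted p under 0.05. Fold changes on this scale understate those of low genes. Samples are pools of separate mice, and p-values measure the spread between pools. Single genes and ratios were tested by exact two-sided permutation (70 assignments), and correlations by permutation within groups (576 pairings), in Python 3.11.15 with scipy 1.17.1. Alternatives were edgeR 4.0.16 and DESeq2 1.42.0 on the recovered reads, a pseudocount of 0.1, no filter or a mean of at least 10, total count scaling, a replicate block and left-out samples. The main limma fit, edgeR with its filter and DESeq2 were tested on simulated data, and the other alternatives were not.

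The members and lists (bulge genes, follicle transcription factors, upper follicle and isthmus, root sheath and hair, paralogs and partners, basal and differentiated interfollicular keratinocytes, sebaceous gland, endothelial cells, fibroblasts, immune cells and melanocytes) were chosen with earlier results of these data known. Named besides the members are up to 8 called genes of each list, every tested paralog or partner, markers at 0, and the 3 genes (mean of at least 20) nearest in profile to each member. The further bulge genes, Krt5, Krt14, Trp63, Thy1, Scd3 and Mc5r were named after their values were seen. Gene positions are from GENCODE M21 and promoters from RefSeq. Promoter windows of chromosome 18 were left out, and windows of 5 of the 7 members were used. Columns of the authors' own group means and tests were not used, nor was the second profiling.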

Additional observations from a re-analysis of the deposited data

Results flagged for a closer look

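Of 136 groups of 4 values examined, 10 held a sample whose gap to the nearest of the others was over Dixon's 95% limit as a share of the group's range. By chance about 1 in 20 groups is picked in this way. Among the bulge genes it was Nfatc1, with 215.9 in p16 replicate 1 against 193 to 197 in the others. P16 replicate 2 was high for Mgst1 (205.3 against 103 to 120), for Dct (47.6 against 9.0 to 14.4) and for Acoxl (7.8 against 1.6 to 1.8). Krt24 was high in p16 replicate 3 at 117, with the others at 21.4 to 33.6, and Nfatc4 was at 0 there, with the others at 3.1 to 3.3. Ppp3ca was low in p16 replicate 4 (729.3 against 996 to 1043). In the control group, replicate 4 was high for Sox21 (455.3 against 337 to 356) and Rmdn3 (247.5 against 200 to 203), and replicate 2 was low for Plet1 (173.3 against 263 to 268).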

How the results depend on the processing

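Cd34, Lhx2 and Tbx1 stayed lower and past the threshold in all 18 alternative settings, and Nfatc1 in 17. Sox9 and Foxc1 did so in 11 of 18. When replicate 3 was left out of each group, Sox9 (-0.83, adjusted p = 0.0746 by limma), Foxc1 (-0.64, 0.0887) and Nfatc1 (-0.53, 0.0610) missed it, Runx1 turned to -0.15, and 3 of the 7 genes were called. With total count scaling, which put the median of all genes at 0.03, Sox9 (-0.70, adjusted p = 0.051 by limma) and Foxc1 (-0.57, 0.0511) missed it. Without p16 replicates 1 and 4, chosen after seeing the data, they changed by -0.41 and -0.34. The causes were not tested.

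Leaving out 1 sample at a time, log2 fold changes ranged from -3.90 to -3.56 for Cd34, -2.32 to -1.91 for Lhx2, -0.86 to -0.52 for Sox9, -0.56 to -0.46 for Nfatc1, -3.02 to -2.65 for Tbx1, -0.72 to -0.47 for Foxc1 and -0.15 to 0.31 for Runx1, which turned to -0.033 without control replicate 4 and to -0.014, -0.0011 and -0.15 without p16 replicate 1, 2 or 3. Over all genes 69 (without p16 replicate 1) to 196 were then called higher and 177 (without control replicate 1) to 343 lower, and 4 to 6 of the 7 genes. The ratio of Cd34 to Lhx2 changed by -1.995 to -1.26, that to Tbx1 by -1.16 to -0.75, that to Sox9 by -3.38 to -2.74, that to Nfatc1 by -3.40 to -3.05, that to Foxc1 by -3.43 to -2.91 and that to Runx1 by -4.22 to -3.44. The Tbx1 ratio passed without control replicate 4 (adjusted exact permutation p = 0.0343) and the Lhx2 ratio without p16 replicate 4. With a pseudocount of 0.1 the Lhx2 ratio passed at -1.67. When replicate 3 was left out of each group, where 3 against 3 samples cannot pass, the ratios to Sox9, Nfatc1, Foxc1 and Runx1 were -2.90, -3.20, -3.09 and -3.58.

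In the same fits with 1 sample left out, calls per list were 3 (without control replicate 2 or p16 replicate 1) to 5 lower and 0 (without control replicate 2) to 3 (without p16 replicate 4) higher for bulge genes, 3 to 5 lower for follicle transcription factors, 2 to 4 lower for the upper follicle, 2 to 3 lower for sheath and hair, 0 (without control replicate 1 or 4 or p16 replicate 1) to 1 lower for paralogs and partners, 1 (without control replicate 1 or 3 or p16 replicate 1) to 2 lower and 1 to 2 (without control replicate 3 or p16 replicate 2) higher for differentiated interfollicular genes, 5 to 6 lower for the sebaceous gland and 0 (without control replicate 1 or 4 or p16 replicate 1 or 3) to 3 lower for melanocytes. Calls over all genes were 66 higher and 157 lower without replicate 3 of each group, 83 and 175 without p16 replicates 1 and 4, 897 and 1141 at an unadjusted p, 160 and 299 by edgeR, and 188 and 355 by DESeq2, against 159 and 334. Without replicate 3 of each group, 3 bulge genes were called lower, 2 upper follicle genes lower and 0 higher, 0 paralogs, 0 differentiated genes lower and 1 melanocyte gene. Without p16 replicates 1 and 4, 3 bulge genes were called higher, 2 upper follicle genes lower, 0 paralogs and 1 differentiated gene lower, and 0 melanocyte genes. A pseudocount of 0.1 gave 3 bulge genes lower and 1 melanocyte gene, and edgeR 1 melanocyte gene.

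With the replicate number as a block, 216 genes were called higher and 392 lower, and the calls of the 7 genes did not change, while 3 bulge genes were called higher, 2 paralogs lower and 2 differentiated genes higher. Whether the numbers pair the samples cannot be told from these values. Same-numbered samples deviated together with r = 0.11, 0.02, 0.06 and 0.18 over 10431 genes. The same-numbered p16 sample was the closest for control replicates 1, 3 and 4. The lead was small for control replicate 1 (0.097 with p16 replicate 2) and control replicate 3 (0.057 with p16 replicate 4). Control replicate 2 was closer to p16 replicate 1 (0.13).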
